A study of Homo sapiens with 9 samples.

Results

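Glycolytic enzyme genes were examined for chromatin binding of the zinc finger protein ZNF395 in renal carcinoma cells. The set held 8 genes, HK2, ALDOA, TPI1, GAPDH, PGK1, ENO1, PKM and LDHA, and the regions described are all called peaks of chromatin immunoprecipitation followed by sequencing (ChIP-seq) with any part within 10 kb of the transcription start site (TSS) fixed for each gene on the hg19 build. These windows held 62 of the 52875 peaks in the 5 deposited lists. The rule that picks the peaks uses only position, but the genes were chosen with earlier results of these data known. The libraries tested were GFP ChIP-seq of cells with eGFP knocked in at ZNF395 and of parental cells without the tag, in 786-O and in A498, both established human lines of clear cell renal carcinoma, and MYC ChIP-seq of parental 786-O cells. Each of these 5 groups was 1 library. The tag had been introduced by transfection of a guide and a donor plasmid. No label says whether the tagged cells were 1 clone. The libraries titled A498 carry 786-O in their cell line field, and the library titled MYC carries a MYC antibody but P300 as its target. In the text, A498 and MYC follow the titles.

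Glycolysis turns glucose into pyruvate in the cytosol. Hexokinase traps glucose as its phosphate, aldolase and triosephosphate isomerase deliver the triose that GAPDH oxidises, phosphoglycerate kinase and pyruvate kinase make ATP on either side of enolase, and lactate dehydrogenase turns pyruvate into lactate. These genes are well known targets of hypoxia-inducible factors and of MYC. Clear cell renal cell carcinoma commonly has lost VHL, which keeps hypoxia-inducible factors active and the tumours strongly glycolytic.

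A peak score here was read as −log10 of a p or q value, as set out below, and each list was called against 1 control library. Scores depend on the depth and control of their own library, so peaks are compared between lists by their rank as a percent of the list. A small percent means a strong peak within its list. The percent also depends on how many weak peaks the list holds, so it is no measure of binding strength between lists. With 1 library per group no difference has a replicate check and no test was possible. A gene without a called peak may still have signal below the threshold. The lists held 20034 peaks for ZNF395-eGFP 786-O, 3361 for parental GFP 786-O, 7718 for ZNF395-eGFP A498, 1563 for parental GFP A498 and 20199 for MYC. The depth of each library is unknown beyond the 30 to 50 M reads that the labels give as an average.

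Every one of the 8 genes had ZNF395-eGFP and MYC peaks within 1 kb of its TSS, and the promoter sequences of all 8 were searched. Those of HK2, GAPDH, PGK1, ENO1 and the first LDHA start are shown. All searched promoters come from RefSeq on GRCh38.p14, 250 bases before to 50 after each listed start, and not from hg19. Which hg19 position each listed start takes was not determined for any gene. A promoter, that of GAPDH included, therefore need not lie at the hg19 TSS used for the peaks. All 8 genes matched, with 13 starts between them. The positions are chr2:74833877-74834176 and chr2:74834920-74835219 for HK2, chr12:6535014-6535313 for GAPDH, chrX:78103998-78104297 for PGK1 and chr11:18394313-18394612 for LDHA, all on the plus strand, and chr1:8878637-8878936 on the minus strand for ENO1. Capitals mark every match, on either strand, to the E-box CACGTG bound by MYC and its partners, to CACGCG, a variant E-box, and to ACGTG or GCGTG, the core of hypoxia response elements. The matches overlap, since each CACGTG holds ACGTG on both strands and each CACGCG holds GCGTG. The promoters of ALDOA, TPI1, PKM and the second LDHA start were searched in the same way and are not shown. Of all 13, only that of the first TPI1 start held no match.
HK2 start 1: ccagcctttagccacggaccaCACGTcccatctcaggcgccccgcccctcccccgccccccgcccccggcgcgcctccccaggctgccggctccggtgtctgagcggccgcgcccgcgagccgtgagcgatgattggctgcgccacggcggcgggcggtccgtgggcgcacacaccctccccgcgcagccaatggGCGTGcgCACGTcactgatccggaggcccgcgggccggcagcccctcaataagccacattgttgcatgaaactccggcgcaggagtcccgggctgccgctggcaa
HK2 start 2: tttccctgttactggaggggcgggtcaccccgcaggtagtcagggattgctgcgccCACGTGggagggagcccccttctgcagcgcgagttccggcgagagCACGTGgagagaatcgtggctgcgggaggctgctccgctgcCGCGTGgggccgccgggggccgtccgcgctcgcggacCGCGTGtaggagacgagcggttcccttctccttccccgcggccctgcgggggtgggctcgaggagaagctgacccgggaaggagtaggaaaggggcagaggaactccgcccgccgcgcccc
GAPDH: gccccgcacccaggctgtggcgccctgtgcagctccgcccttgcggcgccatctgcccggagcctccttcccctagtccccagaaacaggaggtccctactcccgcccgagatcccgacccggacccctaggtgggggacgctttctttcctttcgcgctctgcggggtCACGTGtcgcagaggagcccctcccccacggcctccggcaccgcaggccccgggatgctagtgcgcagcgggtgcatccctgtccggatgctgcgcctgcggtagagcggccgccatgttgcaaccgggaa
PGK1: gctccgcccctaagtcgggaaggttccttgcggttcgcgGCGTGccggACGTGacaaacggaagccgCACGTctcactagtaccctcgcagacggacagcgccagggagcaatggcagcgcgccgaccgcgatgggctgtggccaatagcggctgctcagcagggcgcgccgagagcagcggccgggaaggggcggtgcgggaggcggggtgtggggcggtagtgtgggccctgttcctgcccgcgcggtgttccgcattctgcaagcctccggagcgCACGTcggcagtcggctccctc
ENO1: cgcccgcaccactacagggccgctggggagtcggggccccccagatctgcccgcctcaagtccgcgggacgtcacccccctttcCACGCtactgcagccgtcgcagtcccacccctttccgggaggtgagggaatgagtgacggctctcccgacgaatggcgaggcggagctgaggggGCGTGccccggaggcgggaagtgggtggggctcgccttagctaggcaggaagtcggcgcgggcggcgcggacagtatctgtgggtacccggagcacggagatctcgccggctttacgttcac
LDHA start 1: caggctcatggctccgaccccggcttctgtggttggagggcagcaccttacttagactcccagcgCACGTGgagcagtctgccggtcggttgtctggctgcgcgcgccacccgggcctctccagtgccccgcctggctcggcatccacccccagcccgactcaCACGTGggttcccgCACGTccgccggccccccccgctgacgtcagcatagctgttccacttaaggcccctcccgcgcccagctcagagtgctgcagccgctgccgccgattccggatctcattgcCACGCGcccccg

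The E-box CACGTG stood in 4 of the 13 promoters, those of the second HK2 start, the second ALDOA start, GAPDH and the first LDHA start, against 7.26% of all 35116 RefSeq promoters of the same length. HK2 and LDHA each held 2 copies, at 194 and 149 bases before the HK2 start and at 185 and 87 bases before the LDHA start. ACGTG was found in 9 of the 13 promoters and 6 of the 8 genes, against 21.4% of all promoters. GCGTG was found in 8 of the 13, against 36.5%, and CACGCG in 5 of the 13, against 11.4%. The 13 promoters had a GC content of 55.7 to 75.0%, and no comparison at equal GC content was made. A match is a description of these letters and no evidence of binding, or of a place at the hg19 TSS.

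All 8 genes had a ZNF395-eGFP peak in both cell lines and a MYC peak in 786-O. Peaks of ZNF395-eGFP numbered 15 in 786-O and 16 in A498, against 8 parental GFP peaks in 786-O and 2 in A498. Tagged 786-O cells had a peak over the TSS itself at 7 of the 8 genes, all but ALDOA, against 3 in parental 786-O cells (GAPDH, PGK1 and ENO1). In A498 the peak covered the TSS at HK2, PGK1 and LDHA in tagged cells, against none in parental cells. MYC covered it at the same 7 genes as ZNF395-eGFP in 786-O. Covering a TSS depends on peak width, and the median width at these genes was 688 bp in tagged and 279 bp in parental 786-O cells. Parental 786-O peaks began 14 bp after the TSS at TPI1, 30 bp at PKM and 116 bp at LDHA. Parental A498 peaks began 53 bp after it at GAPDH and 110 bp at LDHA. The share of all start sites covered by each list was not determined.

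These counts are set beside the lists as a whole. Of 20 kb tiles on chromosomes 1 to 22 and X, 10.3% held a ZNF395-eGFP peak in 786-O, 4.46% in A498, and 10.2% a MYC peak. Tiles include much sequence without genes. Windows of 10 kb on either side of a MYC peak are nearer in kind, since all 8 genes had such a peak. Of these, 76% held a ZNF395-eGFP peak in 786-O and 27.4% in A498. Since 8 of 8 is the most possible in either line, the gap to the background is set by these shares alone. The lists differ in length, and the MYC peaks come from 786-O. The windows are those of all MYC peaks, weak ones included, while the best MYC peaks at the 8 genes had a median in the upper 5.43%. No background of promoters with MYC peaks of like rank was made.

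Parental GFP peaks, called in cells that carry no tag, lay at 7 of the 8 genes in 786-O and at 2 of the 8 in A498. The same windows around MYC peaks contained a parental peak at a rate of 16.8% for 786-O and 2.95% for A498. For plain tiles these rates were 1.71% and 0.567%. HK2 was the gene without any parental peak in either line. GAPDH and LDHA had one in both lines, and ALDOA, TPI1, PGK1, ENO1 and PKM in 786-O but not in A498.

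**Figure D1:**
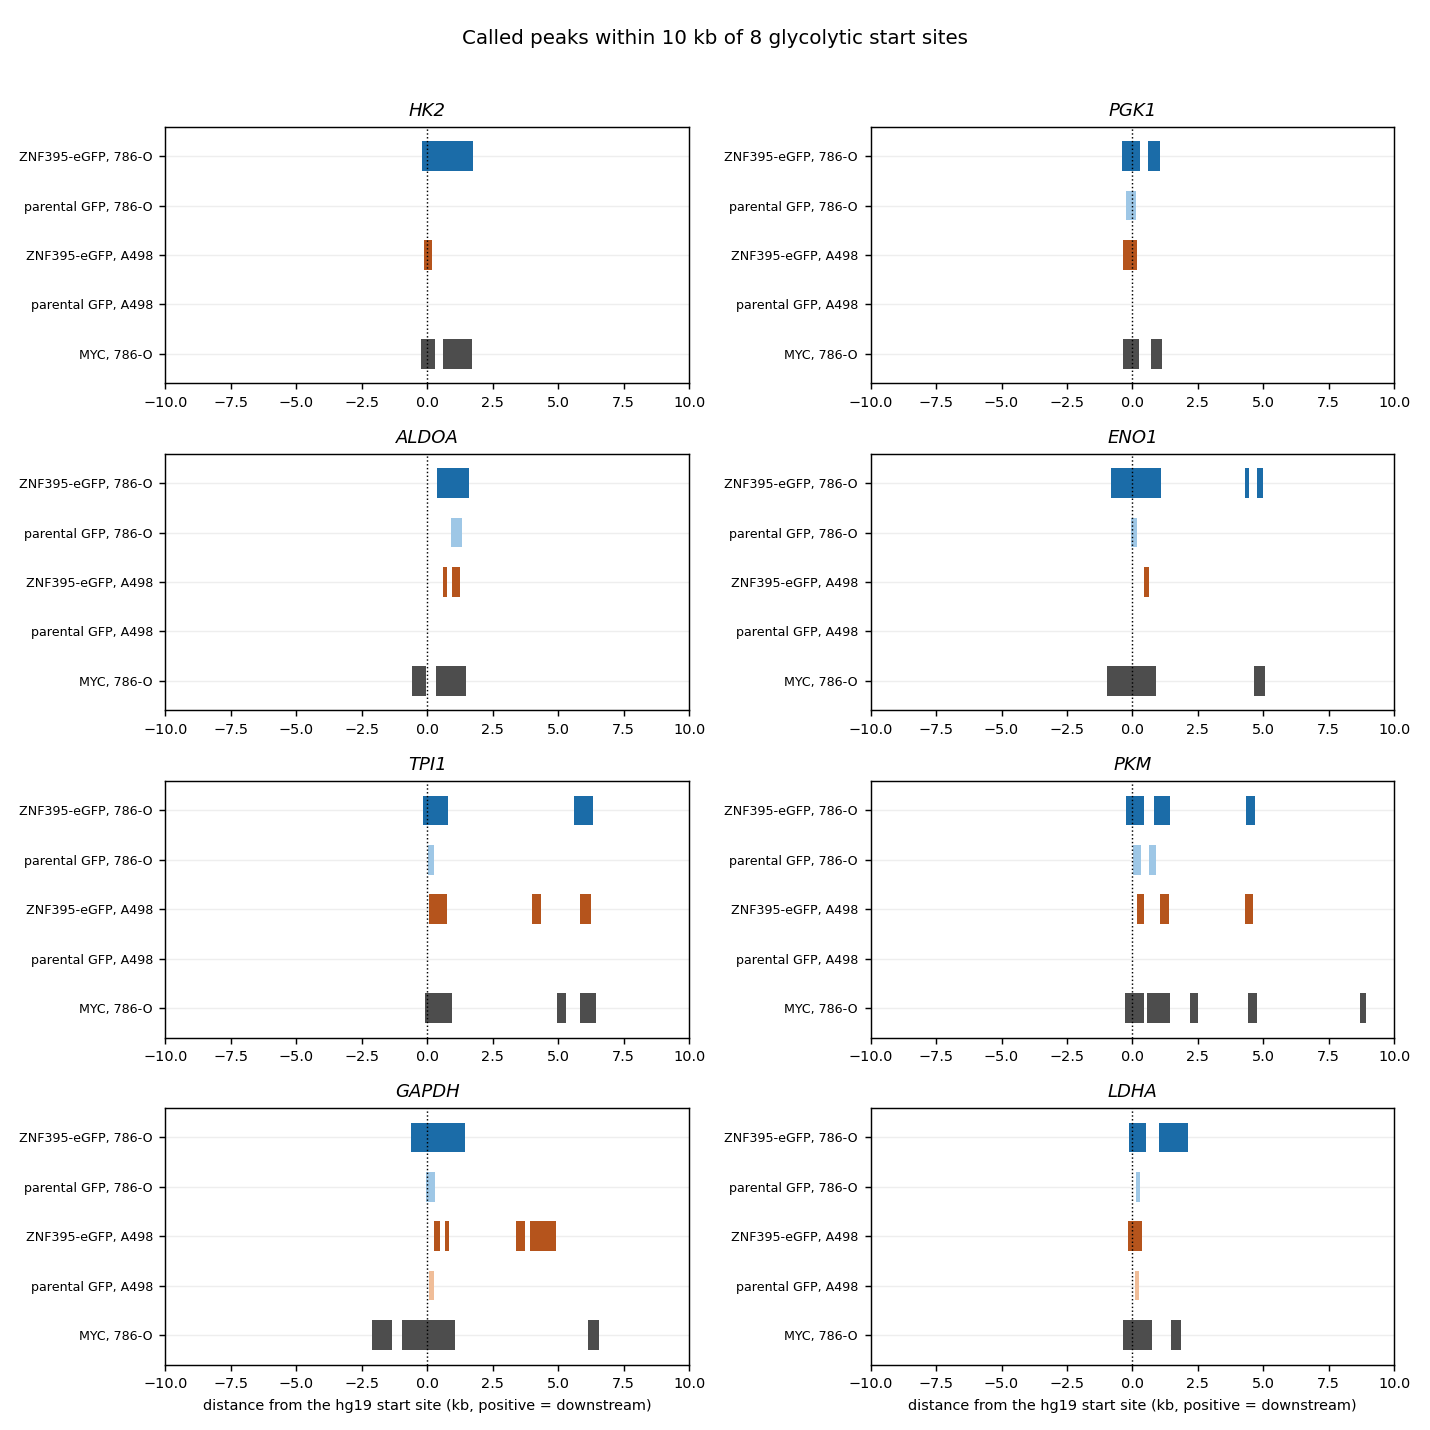
Called peaks within 10 kb of the TSS of each gene. The x axis is the distance from the hg19 TSS in kb, positive in the direction of transcription, and each bar is 1 peak drawn to scale in 1 of the 5 lists. All 8 genes have ZNF395-eGFP peaks in both lines close to the TSS, and parental GFP peaks lie at 7 genes in 786-O and at 2 in A498.

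HK2, a hexokinase that is induced in many tumours and traps glucose as its phosphate, has its TSS at chromosome 2, position 75061108. In 786-O the single ZNF395-eGFP peak ran from 75060891 to 75062851, from 217 bp before to 1743 bp after the TSS, with a score of 58.3 and rank 1300 of 20034 (upper 6.49%). In A498 it was a peak of 295 bp at 75060986 to 75061280, with a score of 5.77 and rank 3820 of 7718 (upper 49.5%). HK2 thus held the strongest ZNF395-eGFP peak of the 8 genes in 786-O and, taking the best peak of each gene, the weakest in A498. No GFP peak was called in parental cells of either line within 25 kb.

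The MYC list split the broad HK2 site into 2 peaks. One ran from 227 bp before to 305 bp after the TSS (score 23.1, rank 7505), and the other from 586 to 1724 bp after it (score 223.8, rank 121 of 20199). The A498 peak lay inside the weaker MYC peak at the TSS and had no overlap with the stronger, downstream one. RefSeq lists 2 HK2 starts that are 1043 bp apart on GRCh38.p14, and both CACGTG copies shown above belong to the second. Which hg19 position each start takes was not determined.

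ALDOA encodes the aldolase that splits fructose bisphosphate, and its TSS is at chromosome 16, position 30075978. The ZNF395-eGFP peak in 786-O lay at 30076343 to 30077573, from 365 to 1595 bp after the TSS, with a score of 18.2 and rank 7597 (upper 37.9%, the weakest of the 8 genes). A parental 786-O peak with a score of 9.88 (rank 991 of 3361) lay wholly inside it. Tagged A498 cells had 2 peaks in the same place, at 590 to 757 bp (score 7.79, rank 2324) and at 937 to 1262 bp (score 2.38, rank 7550), and parental A498 cells had none in the window. No list had a peak over the chosen ALDOA TSS. The MYC peaks lay on either side of it, ending 39 bp before it (score 12.9) and running from 332 to 1479 bp after it (score 61.4, rank 2339). RefSeq has 3 ALDOA starts spread over 1481 bp on GRCh38.p14.

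TPI1, which encodes triosephosphate isomerase, has its TSS at chromosome 12, position 6976584. In 786-O a ZNF395-eGFP peak ran from 162 bp before to 790 bp after the TSS (score 20.4, rank 6738), and a parental peak of 255 bp (score 7.58, rank 1388) lay inside it. In tagged A498 cells the matching peak started 77 bp after the TSS and ended at 747 bp (score 9.61, rank 1597), with no parental A498 peak. MYC ranked 940 here, with a score of 106.0.

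A separate TPI1 site lay farther downstream, and there ZNF395-eGFP ranked higher than at the TSS in both lines. It ran from 5624 to 6333 bp after the TSS in 786-O (score 28.0, rank 4696) and from 5827 to 6270 bp in A498 (score 9.75, rank 1571). Neither parental list had a peak there, and MYC had one at 5822 to 6433 bp (score 34.0, rank 5025) and another at 4954 to 5293 bp (rank 7858) with no ZNF395-eGFP partner. In the RefSeq gene table the gene overlapping the end of TPI1 is SPSB2. To which gene this site belongs was not determined. A weak A498 peak at 4011 to 4330 bp (score 3.39, rank 6579) had no partner in the 786-O ZNF395-eGFP, parental or MYC lists.

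GAPDH, the dehydrogenase that yields NADH in glycolysis and serves widely as a housekeeping control, has its TSS at chromosome 12, position 6643585. Its ZNF395-eGFP peak in 786-O was the widest of the 15, with 2059 bp from 604 bp before to 1454 bp after the TSS (score 38.7, rank 2833, upper 14.1%). Parental 786-O cells had a peak of 342 bp over the TSS (score 9.38, rank 1056). Parental A498 cells had a peak of 210 bp just after the TSS (score 11.6, rank 876 of 1563). The MYC peak over the TSS had a score of 90.4 and rank 1254, and a weak MYC peak (score 3.13) lay at 6138 to 6548 bp.

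In tagged A498 cells the 2 peaks near the GAPDH TSS were weak. They lay at 262 to 488 bp (score 5.51, rank 4039) and at 663 to 837 bp (score 5.25, rank 4262), and the nearer of them shared 1 bp with the parental A498 peak. The strongest A498 peak in the window was elsewhere, at 6647521 to 6648497, from 3936 to 4912 bp after the TSS (score 15.3, rank 756, upper 9.8%), beside a smaller one at 3394 to 3725 bp (score 4.12). Neither had a partner in 786-O, in the parental lists or in the MYC list. The next protein-coding gene downstream in RefSeq is IFFO1. Together with the weak TPI1 peak these are the 3 of 16 A498 peaks that lack a ZNF395-eGFP peak in 786-O.

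PGK1 encodes phosphoglycerate kinase, the first enzyme of the pathway to give ATP, and has its TSS on the X chromosome at position 77359666. All 4 lists with a peak there had it over the TSS. ZNF395-eGFP peaks ran from 401 bp before to 286 bp after it in 786-O (score 18.5, rank 7468, upper 37.3%) and from 350 bp before to 172 bp after it in A498 (score 10.9, rank 1340, upper 17.4%). A parental peak of 376 bp lay inside the 786-O peak (score 8.62, rank 1173), and none was called in parental A498. MYC had a score of 26.7 and rank 6553, the weakest of the best MYC peaks at the 8 genes. A small ZNF395-eGFP peak at 610 to 1046 bp in 786-O (score 4.78, rank 17687) overlapped a MYC peak at 719 to 1120 bp (score 9.86) but no parental or A498 peak.

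ENO1 encodes enolase and lies on the minus strand, with its TSS at chromosome 1, position 8938749. In 786-O the ZNF395-eGFP peak covered 8937658 to 8939563, from 814 bp before to 1091 bp after the TSS (score 28.7, rank 4532, upper 22.6%). The parental 786-O peak inside it had a score of 15.3 and rank 603 of 3361 (upper 17.9%), the strongest parental peak at these genes by rank. The A498 peak was short and off the TSS, at 423 to 639 bp after it (score 7.52, rank 2433), and did not overlap the parental 786-O peak. MYC had its strongest peak of the set here, with a score of 241.5 and rank 95. The ENO1 promoter shown above holds no CACGTG, but it has 300 bases and the MYC peak 1847 bp. Whether the sequence under the peak holds CACGTG was not examined. In 786-O 2 further small ZNF395-eGFP peaks lay 4294 to 4465 bp (score 5.61) and 4769 to 4966 bp (score 9.78) after the TSS. The one farther from the TSS lay over a MYC peak at 4657 to 5066 bp (score 34.1). The one nearer to the TSS was the 1 peak of the 15 with no MYC partner.

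PKM encodes pyruvate kinase, lies on the minus strand and has its TSS at chromosome 15, position 72523727. Its 3 ZNF395-eGFP peaks in 786-O all had a partner in A498. Over the TSS, from 242 bp before to 428 bp after it, the 786-O peak had a score of 37.7 and rank 2958 (upper 14.8%), and the A498 peak that overlapped it, at 164 to 434 bp, a score of 7.70 and rank 2345 (upper 30.4%). At 810 to 1424 bp after the TSS the 786-O peak ranked 4825 (score 27.4, upper 24.1%), and the A498 peak, at 1060 to 1412 bp, ranked 679 (score 16.3, upper 8.8%), the best rank of A498 at any of the 8 genes. At 4351 to 4683 bp the 786-O peak had rank 1512 (score 54.1, upper 7.55%), and its A498 partner had rank 3700 (score 5.77, upper 47.9%). By percent of the list, 786-O thus stood higher at the TSS and at the distal site, and A498 at the site between them. The lists differ in length, and by rank alone A498 was ahead at the TSS as well, with 2345 against 2958.

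The ZNF395-eGFP site of PKM farthest from the TSS was also the one without a parental peak. Parental 786-O peaks lay at 30 to 332 bp (score 12.5, rank 723) and at 649 to 886 bp (score 6.47, rank 1713). The one farther from the TSS shared 77 bp with a ZNF395-eGFP peak. No parental 786-O peak reached the site at 4351 bp, and parental A498 cells had none in the window. MYC had 5 peaks at PKM. Those over the TSS and at 556 to 1431 bp had scores of 40.0 and 35.8, those at 2186 to 2490 and 8676 to 8905 bp had 11.3 and 16.8, and the one at the distal ZNF395-eGFP site had 16.1 (rank 10198).

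LDHA encodes the lactate dehydrogenase subunit that favours lactate formation, with its TSS at chromosome 11, position 18415936. Here the GFP antibody gave a peak in all 4 GFP libraries. ZNF395-eGFP peaks ran from 134 bp before to 515 bp after the TSS in 786-O (score 26.1, rank 5165, upper 25.8%) and from 160 bp before to 370 bp after it in A498 (score 13.8, rank 925, upper 12.0%). Parental peaks lay inside both, at 116 to 285 bp in 786-O (score 4.64, rank 2432, upper 72.4%) and at 110 to 255 bp in A498 (score 6.47, rank 1142, upper 73.1%). Both parental peaks were in the lower ranks of their lists. A second 786-O peak at 997 to 2139 bp (score 20.6, rank 6691) had no parental or A498 partner and overlapped a weak MYC peak at 1484 to 1846 bp (score 4.78, rank 19052). At the TSS the MYC peak had a score of 149.0 and rank 445.

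**Figure D2:**
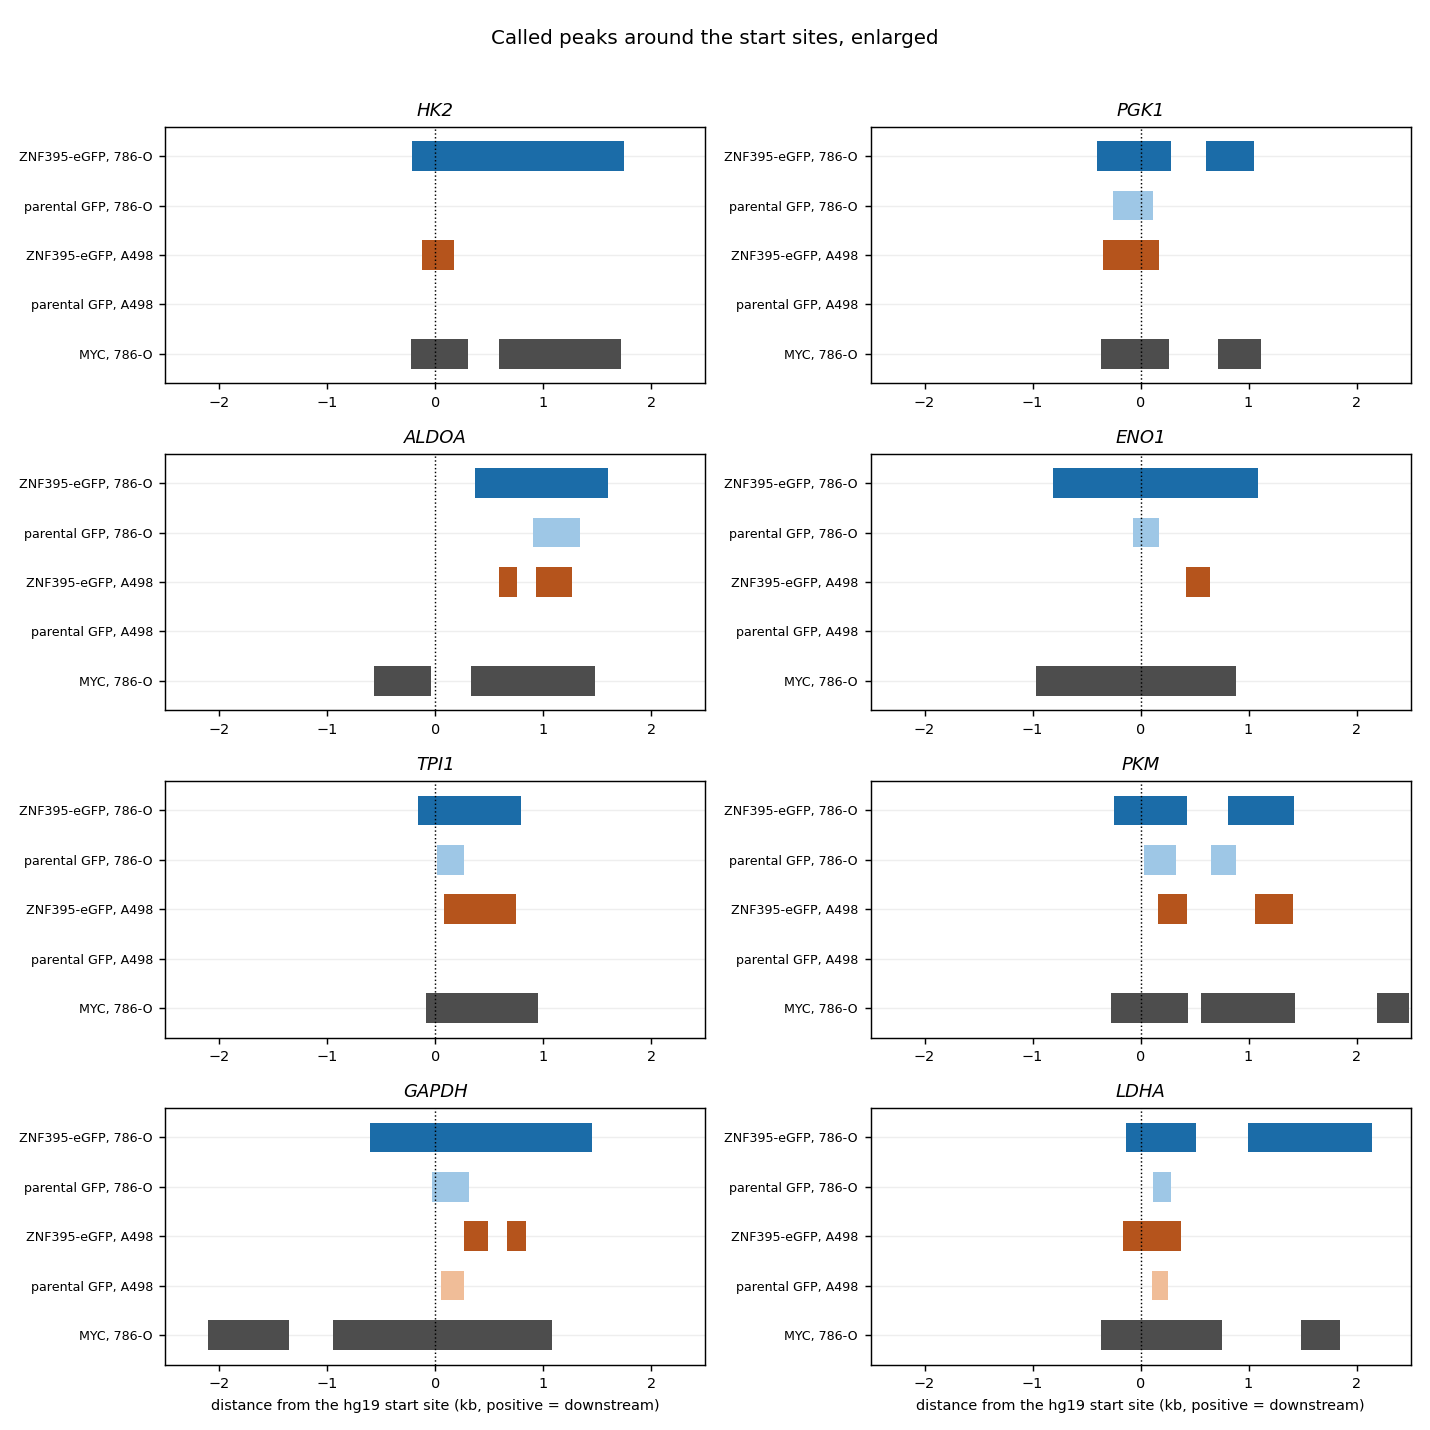
The same peaks enlarged to 2.5 kb on either side of the TSS, with distance in kb on the x axis and 1 bar per peak. The ZNF395-eGFP peaks of 786-O enclose or touch each parental 786-O peak, and HK2 has none to enclose.

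The strength of the best peak of each gene was ordered differently in the lists. In 786-O the genes ran HK2, PKM, GAPDH, ENO1, TPI1, LDHA, PGK1 and ALDOA, from the upper 6.49% to the upper 37.9%, with a median of 23.0%. In A498 they ran PKM, GAPDH, LDHA, PGK1, TPI1, ALDOA, ENO1 and HK2, from the upper 8.8% to the upper 49.5%, with a median of 18.9%. All 8 genes had their best peak in the upper 50% of both lists. HK2 changed place most. The best peak of a gene was not always the same site in both lines. At GAPDH it was over the TSS in 786-O and downstream in A498, where the peaks near the TSS were at 52.3% and 55.2% of the list. At PKM the best 786-O site, in the upper 7.55%, was at 47.9% in A498.

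MYC ranked the genes in another order, from ENO1 and HK2 in the upper 0.47% and 0.599%, over LDHA, TPI1, GAPDH, ALDOA and PKM, to PGK1 in the upper 32.4%. The best ZNF395-eGFP peak was in the upper 10% of its list at 2 genes in each line, and the best MYC peak at 5 genes. Without a second library the neighbours in each order cannot be told apart.

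**Figure D3:**
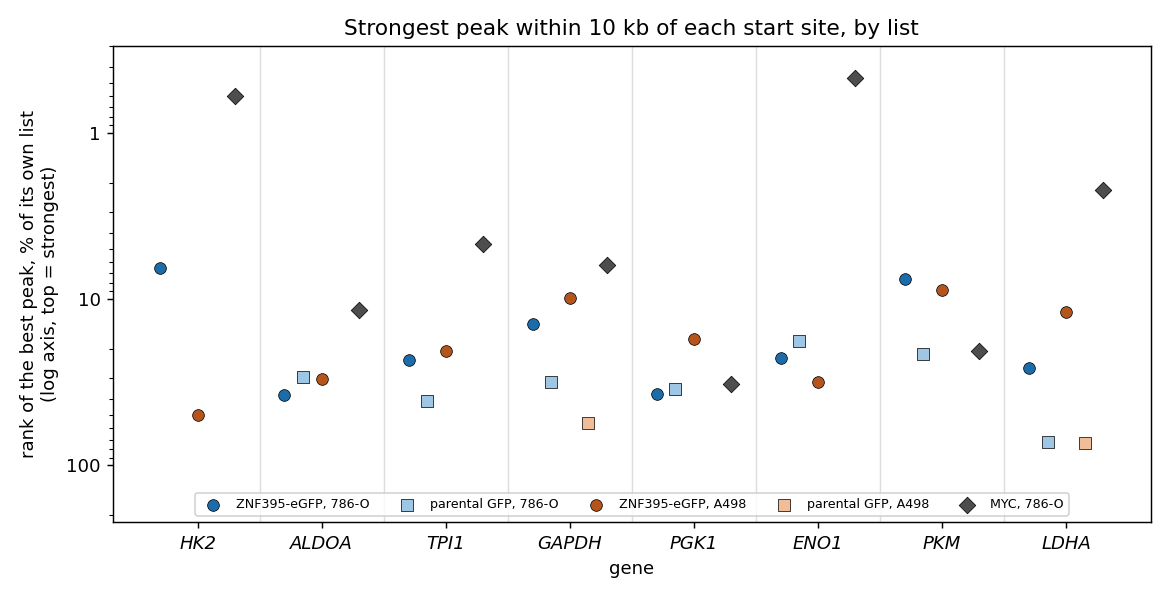
Rank of the strongest peak within 10 kb of each TSS, as a percent of its own list on a log axis with the strongest at the top. Each point is 1 library, circles are tagged, squares parental and diamonds MYC. HK2 is in the upper 6.49% for ZNF395-eGFP in 786-O and the upper 49.5% in A498, and has no parental point.

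All parental peaks in the windows lay at least in part within 1 kb of a TSS. This left the ZNF395-eGFP peaks beyond 1 kb little to overlap, and they overlapped none. Of the 15 ZNF395-eGFP peaks in 786-O, 8 overlapped a parental 786-O peak (53.3%, exact Clopper-Pearson 95% interval 26.6 to 78.7), against 12.2% of the whole list. Of the 7 peaks over a TSS 6 did so, all but that of HK2. Of the 4 peaks within 1 kb but not over the TSS 2 did so, at ALDOA and PKM. Of the 4 peaks that began more than 1 kb from the TSS, at TPI1, ENO1 and PKM, 0 did so. In all, 6 of the 8 genes had at least 1 ZNF395-eGFP peak in 786-O free of parental overlap, and ALDOA and GAPDH had none.

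Of the 16 peaks in A498, 2 overlapped a parental A498 peak (12.5%, 1.55 to 38.3), at LDHA and, by 1 bp, at GAPDH, against 6.93% of the whole list. By position these were 1 of the 3 peaks over a TSS, 1 of the 7 others within 1 kb and 0 of the 6 beyond 1 kb. In the other direction all 8 parental 786-O peaks and both parental A498 peaks overlapped a ZNF395-eGFP peak of their line, against 76.2% and 35.1% of the whole parental lists. These intervals reflect counting error alone and take every peak as independent, which peaks of the same gene are not. Across lines, an A498 ZNF395-eGFP peak overlapped a parental 786-O peak at ALDOA, TPI1, GAPDH, PGK1, PKM and LDHA, but not at HK2 or ENO1. The share of the whole A498 list that does so was not determined.

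ZNF395-eGFP peaks at these genes had larger shares of partners in the other line and in MYC than the whole lists, without a test of the difference. The interval of the A498 share with 786-O held the list's own value. Peaks of the same gene are not independent, and the genes were chosen with earlier results of these data known. Whether an interval holds the list's value is therefore no test of a difference. In 786-O, 11 of 15 overlapped an A498 peak (73.3%, 44.9 to 92.2), against 20.5% of the list, and 14 of 15 a MYC peak (93.3%, 68.1 to 99.8), against 60.6%. In A498, 13 of 16 overlapped a 786-O peak (81.2%, 54.4 to 96.0), against 56.6%, and 13 of 16 a MYC peak, against 46.8%. Partners in both A498 and MYC were found for 11 of the 15 peaks in 786-O, against 17.1% of the 786-O list.

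The peaks shared by both lines and MYC held all of the parental overlap. Of those 11 peaks 8 also overlapped a parental 786-O peak, while among the 3419 peaks of the whole list with both partners 27% did. The 3 without parental overlap were HK2, the distal site of TPI1 and the distal site of PKM. All 8 parental 786-O peaks and both parental A498 peaks overlapped a MYC peak, against 60.5% and 15.9% of their whole lists. The parental 786-O and MYC libraries were called against the same control library, and the part of that control in these overlaps was not tested.

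**Figure D4:**
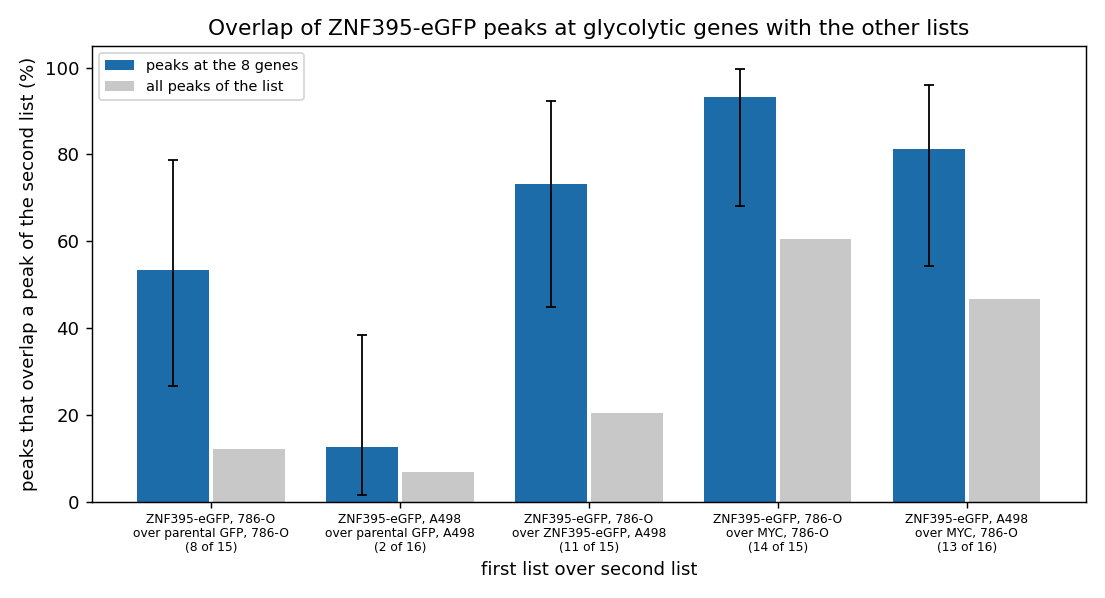
Percent of ZNF395-eGFP peaks that overlap a peak of a second list by at least 1 bp, for peaks at the 8 genes and for all peaks of the list. Whiskers are exact 95% binomial intervals, and counts stand under each pair. Overlap with parental 786-O peaks is 53.3% at the genes, against 12.2% in the list.

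Peaks at these genes were also wider than those of their lists. ZNF395-eGFP peaks had a median width of 688 bp in 786-O and 323 bp in A498, against 393 and 245 bp in the whole lists, and MYC peaks 612 bp, against 425 bp. Wider peaks have more room to overlap, and the part of width in the shares above was not tested. At the 14 common sites the midpoints of ZNF395-eGFP in 786-O and the nearest MYC peak were a median of 94.25 bp apart, from 6 bp at LDHA, PGK1 and ENO1 to 392 bp at HK2. Of the 21 MYC peaks, 15 overlapped a ZNF395-eGFP peak in 786-O, 11 one in A498 and 8 a parental 786-O peak, against 60.9%, 17.2% and 9.6% of the whole MYC list. The MYC peaks without a ZNF395-eGFP peak in 786-O numbered 6 and lay at ALDOA, TPI1, GAPDH and PKM. The only peak of any list that lay more than 1 kb upstream of a TSS was a MYC peak at GAPDH, 2102 to 1355 bp before it.

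The window set which peaks were counted. The farthest peak inside it was a MYC peak at PKM, 8676 to 8905 bp after the TSS. The nearest outside it were a MYC peak 10317 bp before the LDHA TSS and a ZNF395-eGFP 786-O peak 11023 bp after the ALDOA TSS.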

How the data were processed

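The members and lists were chosen with earlier results of these data known. There are 9 samples: 5 ChIP libraries, each with a peak list, and 4 inputs with none. The submitters' processing notes name BWA, MACS2 and hg19, without versions or settings. The deposited lists have 5 columns, and their peak names state that alignments were merged, sorted and handled by mapping quality and called against 1 control library. The deposited score was read as −log10 of a p or q, since each list begins just above 2; which of them it is, is not given. Per the labels' protocols, cells were fixed with 1% formaldehyde for 10 min, chromatin was sheared to about 500 bp, and 20 µg of antibody was used.

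Starts were converted to 1-based positions. Peaks with any part within 10 kb of the TSS were kept, and overlap meant at least 1 bp. Ranks were taken within each list. All 8 genes are named. Other genes of the pathway need an hg19 annotation and were not analysed here, and neither were exons, introns or the sequence under the peaks. Neighbouring genes, strands and promoters come from RefSeq GRCh38.p14. GAPDH and several other members have pseudogene copies, and how mapping quality filtering treated them was not tested. The overlap rules were tested on simulated peaks. Work was done in Python 3.11.15 with pandas 2.3.3, numpy 2.4.6, matplotlib 3.10.9 and scipy 1.17.1. Alternatives were windows of 1 and 25 kb, midpoints in place of edges, 50% reciprocal overlap, midpoints within 200 bp and the upper 50% of each list by score.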

Additional observations from a re-analysis of the deposited data

How the results depend on the processing

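Of 40 alternative values, 36 stayed within 1.5 times the reported count or within the interval of the reported share, and 4 did not. All 8 genes had a ZNF395-eGFP peak in each line and a MYC peak under every window and in the upper 50% of the lists. Parental GFP peaks in 786-O lay at 6 or 7 genes throughout. Genes with a parental A498 peak numbered 0 in the upper 50% of the list, against 2 in the full list. Genes with a ZNF395-eGFP 786-O peak free of parental overlap numbered 3 within 1 kb, against 6 within 10 kb, since the distal sites leave the window. The share of 786-O peaks with a MYC partner was 100.0% within 1 kb. The share with an A498 partner was 40.0% under 50% reciprocal overlap, against 73.3%, and narrow A498 peaks inside wide 786-O peaks fail that rule by construction. Under the same rule all 8 genes counted as having a 786-O peak free of parental overlap, but narrow parental peaks inside wide 786-O peaks fail it likewise. At ALDOA and GAPDH the parental 786-O peak still lay wholly inside the ZNF395-eGFP peak.

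No paired analysis was possible because each group is 1 library. Depth per library is unknown, so that a missing peak cannot be told apart from one below the threshold.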

Other observations

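Beyond the windows, at 10 to 25 kb from the TSS, ALDOA, TPI1, GAPDH and LDHA had further peaks. A site upstream of the ALDOA TSS was called in all 5 lists. It lay at 30064176 to 30064547 on chromosome 16 for ZNF395-eGFP in 786-O, 11431 to 11802 bp before the TSS (score 23.9, rank 5729) and at 30064298 to 30064499 in A498 (score 5.51, rank 3996). The parental peaks there had rank 411 of 3361 in 786-O and rank 1248 of 1563 in A498, and the MYC peak had rank 14262. Its parental 786-O peak ranked above every parental 786-O peak within 10 kb of the 8 genes.

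At LDHA, 3 parental 786-O peaks lay between 13244 and 14927 bp after the TSS, with ranks 2736, 1218 and 1485 of 3361, and no other list had a peak within 10 to 25 kb downstream. In RefSeq the next protein-coding gene downstream is LDHC. A ZNF395-eGFP 786-O peak of rank 1339 (score 57.3) lay 23583 to 24051 bp after the TPI1 TSS, over a MYC peak of rank 6772 and with no A498 or parental peak. At GAPDH a ZNF395-eGFP peak 20678 to 21876 bp after the TSS in 786-O (score 25.1, rank 5401) had an A498 partner (score 5.05, rank 4575) and no parental or MYC partner.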
